A study of Homo sapiens with 2 samples.

Results

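The regions described here are the crosslink sites of FLAG-tagged Cas9 on chromosome 19 in human embryonic stem cells. They were taken as every deposited region whose chromosome is 19, which gave 85 of the 4204 regions of replicate 1 and 177 of the 5995 regions of replicate 2, or 262 of 10199 in all. Both libraries came from H1-iCas9 cells, an established line derived from H1 stem cells, treated for 24 h with 1 µg/ml doxycycline to switch on Cas9 and exposed to 300 mJ/cm2 of ultraviolet light at 254 nm. RNA joined to Cas9 was recovered with a FLAG antibody and sequenced by irCLIP, a method that maps the base joined to a protein from where cDNA synthesis ends. The libraries form a single group, no guide RNA is named in the labels, and no library without Cas9 was analysed here. The labels do not say whether the replicates were separate cultures, so differences between them may be technical. The stem cell identity of the line cannot be checked in lists of crosslink sites, and RNA levels were not measured in the files used here.

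Chromosome 19 is the most gene-dense human chromosome. It carries large tandem arrays of zinc finger genes, many of whose products hold a KRAB domain and silence transposable elements by recruiting the corepressor TRIM28. It also carries clusters of pregnancy-specific glycoprotein, kallikrein, leukocyte receptor and olfactory receptor genes, and a large placental microRNA cluster next to a smaller group of microRNAs that are abundant in stem cells.

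All 262 regions were single bases. Only 5 of them lay in the windows around transcript starts for which RefSeq sequence was used (GRCh38.p14, 250 bases before to 50 bases after a start), so their sequences are shown as the contexts available. They are printed 5′ to 3′ on the strand of the gene, with the base at the site in capitals and up to 20 bases on each side. Shorter stretches end at the edge of a window. In SLC27A1, ZBTB7A and CAPNS1 the site was on the strand of the gene, and in PLIN4 and OR10H2 it was on the opposite strand.
SLC27A1, chr19:17470461-17470501, plus strand: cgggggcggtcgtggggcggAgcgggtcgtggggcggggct
CAPNS1, chr19:36141016-36141039, plus strand: tcctggttaactcgttcttgAagg
ZBTB7A, chr19:4066936-4066976, minus strand: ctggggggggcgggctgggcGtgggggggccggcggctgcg
PLIN4, chr19:4518540-4518580, minus strand: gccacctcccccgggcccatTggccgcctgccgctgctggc
OR10H2, chr19:15727774-15727796, plus strand: taAcaatagcagaataattatta

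The SLC27A1 site lay 43 bases before a transcript start of this fatty acid transporter gene and had a deposited score of 409 in replicate 2. The deposited score is the authors' value for a region, the sum over its crosslink sites, on a scale that the sources used here do not give. The SLC27A1 score was the highest score among the regions found only in replicate 2. The CAPNS1 site lay 46 bases after a start of the gene of the calpain small subunit, a calcium-dependent protease component, and scored 146.0. The sites of ZBTB7A, a transcriptional repressor gene, and PLIN4, a lipid droplet protein gene, lay 57 and 74 bases before a start and scored 12.5 and 34.4. All 4 were found in replicate 2 only. The OR10H2 site, 248 bases before the start of an olfactory receptor gene, was found in replicate 1 only, with a score of 5.77. The windows of SLC27A1, ZBTB7A and PLIN4 held 73.3%, 71.7% and 70.7% G and C, above the upper quartile of 68.7% over the 1917 start windows of the chromosome, and those of CAPNS1 and OR10H2 held 61.7% and 43.0%. Start windows held 2.26% of the replicate 2 regions of chromosome 19 (exact 95% interval 0.619 to 5.68) and 1.18% of those of replicate 1 (0.0298 to 6.38), and they cover 0.886% of its length. On the other chromosomes, 1 to 18, 20 to 22 and X, they held 1.56% and 0.562% of regions and cover 0.302% of the length. Whether the shares differ between chromosome 19 and the rest was not tested.

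How many regions the chromosome held is described without a test, because it was selected on these numbers. Chromosome 19 had 1.45 regions per Mb in replicate 1, inside the range of the other chromosomes (1.02 on chromosome 22 to 1.59 on chromosome 8), and ranked 8 of 23. In replicate 2 it had 3.02 regions per Mb and ranked 1, above chromosome 17 at 2.44, which has the next highest density of protein-coding genes (14.0 per Mb against 24.8 on chromosome 19). Replicate 2 held 2.08 times as many regions as replicate 1 on chromosome 19, against 1.17 to 1.69 times on each of the other chromosomes and 1.41 times over those together. Lengths were taken up to the end of the last annotated gene.

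Gene-dense stretches of other chromosomes also held more regions in replicate 2 than in replicate 1 by a larger factor than gene-poor ones. In the 2804 bins of 1 Mb outside chromosome 19 with under 20 protein-coding genes, the ratio of replicate 2 to replicate 1 regions was 1.39. In the 180 such bins with 20 or more it was 1.75, and in the 22 of these with 40 or more it was 2.12, from 55 and 26 regions. The bins of chromosome 19 gave 1.67 (40 and 24 regions) in the 18 bins with under 20 genes and 2.25 (137 and 61) in the 41 bins with 20 or more. Split further, they showed no steady order. The ratio was 2.5 with 0 to 9 genes (20 and 8 regions), 1.25 with 10 to 19 (20 and 16), 2.32 with 20 to 39 (116 and 50) and 1.91 with 40 or more (21 and 11). In replicate 1 the density in bins with 20 or more genes was close on chromosome 19 and elsewhere, 1.49 regions per Mb in each, and in replicate 2 it was 3.34 against 2.61. Regions found in both libraries numbered 1.02 per Mb in these bins of chromosome 19 and 0.972 elsewhere. These are descriptions, with no test, of a split chosen after the data were seen.

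A comparison of the libraries asked which regions of chromosome 19 recurred. The same 56 regions were found in both libraries, each at an identical base and on the same strand. They were 65.9% of the replicate 1 regions (exact 95% interval 54.8 to 75.8), against 58.7% on the other chromosomes, a difference that did not pass the test (two-sided Fisher's exact p = 0.22). Over chromosomes 1 to 22 and X together 58.9% of replicate 1 regions recurred. Among regions at or above the median score of replicate 1 the order turned, with 80.0% on chromosome 19 and 83.9% elsewhere (Fisher's exact p = 0.537). In replicate 2 the 56 regions were 31.6% (24.9 to 39.04), against 41.6% on the other chromosomes and 41.3% in all. This share has no test because the larger number of replicate 2 regions was known when the chromosome was chosen. That leaves 29 regions in replicate 1 only and 121 in replicate 2 only. A further pair of sites on the minus strand of NFIC, a nuclear factor I gene, and a pair on the plus strand between genes (13163156 in replicate 1, 13163155 in replicate 2) missed each other by 1 base and count as not recurring.

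Recurring regions had the higher scores. In replicate 1 they had a median of 37.4 (lowest 1.16, highest 351) against 11.7 for the 29 others (1.44 to 65.1). In replicate 2 the medians were 58.8 for the 56 recurring regions (0.146 to 457) and 17.8 for the 121 others (0.447 to 409). The ranges overlapped in both libraries. The order was not particular to chromosome 19. On the other chromosomes the medians of recurring and other regions were 36.6 and 10.7 in replicate 1 and 47.3 and 15.3 in replicate 2. At or above the library's median score 36 of 45 regions of replicate 1 and 43 of 88 of replicate 2 recurred, and below it 20 of 40 and 13 of 89. No region of the chromosome reached the highest single-site score of 708.396 found in each library. Over the 56 recurring regions, which are not independent replicates, the scores of the libraries had a Spearman rho of 0.66, and 35 of the 56 scored higher in replicate 2.

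Of the 15 recurring regions with the highest summed scores, 9 lay in annotated genes and 6 in none. CAPNS1 (36140066 to 36150353) held the highest summed score, at 36144811 on the minus strand, opposite to the gene, with 291 in replicate 1 and 390.5 in replicate 2. With the site near its start shown above, CAPNS1 held 2 regions in replicate 2. LIPE-AS1, a long noncoding RNA gene that overlaps the gene of hormone-sensitive lipase, held 42461538 on the minus strand, opposite to it, with 351 and 327. These scores were of like size in both libraries.

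The next highest sites inside genes lay in the spans of JUNB and HOOK2 and of IER2. The base 12792099 on the plus strand, with 211 and 457, lay in JUNB, an AP-1 transcription factor gene that serum and stress induce (12791486 to 12793315, plus strand), 613 bases after its start. The same base lies in the span of HOOK2, a microtubule adaptor gene on the minus strand (12763003 to 12792350), 251 bases after a start of that gene, so a single host cannot be assigned. IER2, another rapidly induced gene (13150411 to 13154911, plus strand), held 13153537 on the minus strand, opposite to the gene. Its score was 36.7 in replicate 1 and 444 in replicate 2, so it was near the middle of the recurring regions in the first library and among the highest in the second.

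PPP1R13L, which encodes the p53 inhibitor iASPP (45379638 to 45406361), was the only gene of the chromosome with 2 recurring regions. Both lay on the strand of the gene, 45404701 with scores of 42.4 and 358 at 368 bases after the nearest annotated start of the gene, and 45398610 with 10.7 and 15.3. ZC3H4, which encodes a zinc finger protein that limits noncoding transcription, held a recurring site at 47112954 on its own strand, 822 bases after its start, with 183.0 and 59.6. Replicate 2 had a site on each strand of ZC3H4 within the next kilobase of the gene, at 47112527 (46.2, plus) and 47112223 (55.0, minus), and replicate 1 had neither. ABCA7, a lipid transporter gene, held 1053465 opposite to the gene with 139.7 and 160.2. RYR1, the calcium release channel gene of skeletal muscle and at 153.874 kb among the long genes here, held 38464270 on its own strand with 111 and 83.7. GARRE1, an effector gene of Rac GTPases, held 34312259 with 146 and 104, and LOC124904678, a long noncoding RNA gene at the edge of the centromeric gene-free stretch, held 24178211 with 17.8 and 182. The strands of the last 2 genes were not in the tables used.

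Of the 56 recurring regions, 24 lay in no annotated gene. The highest was 4835188 on the plus strand, with 156 and 349, between TICAM1, an adaptor gene of Toll-like receptor signalling, 3.48 kb away, and PLIN3, a lipid droplet protein gene, 3.15 kb away. The site 22447379 on the minus strand, with 183.1 and 281, lay between the zinc finger genes ZNF98 and ZNF492. A facing pair at 31147425 (plus, 145 and 253) and 31147458 (minus, 158 and 254) lay 2.42 kb from TSHZ3, a homeobox and zinc finger gene. The sites 50925005 (minus, 131 and 94.2), 1.86 kb from the pseudogene PPIAP59 and 13.6 kb from the kallikrein gene KLK4, and 16714162 (plus, 153 and 68.4) were also among the 15 recurring regions with the highest summed scores.

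Position along the chromosome was described next. The longest stretch without an annotated gene ran from 24179012 to 27681071, 3.50 Mb around the centromere, and held 0 regions in either library. The short arm before it (24.2 Mb) held 44 regions of replicate 1 and 98 of replicate 2, and the long arm after it (30.9 Mb) held 41 and 79. This is 1.82 and 4.05 regions per Mb on the short arm and 1.33 and 2.56 on the long arm. Regions of both libraries were spread over most of the length, with 17 of 59 bins of 1 Mb empty in replicate 1 and 10 empty in replicate 2, and a median distance between neighbours of 492 kb and 191 kb.

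The bins with the most regions differed between the libraries. In replicate 1 the bin from 34 to 35 Mb led with 6 regions, 4 of them recurring, and the bin from 38 to 39 Mb followed with 5, all recurring. In replicate 2 the bin from 1 to 2 Mb led with 10 regions against 3 in replicate 1. Its hosts included SBNO2, a transcriptional coregulator gene, with 3 regions in replicate 2, and APC2, a relative of the Wnt inhibitor APC, and TCF3, which encodes the E2A transcription factors, with 2 each. The bin from 18 to 19 Mb held 7 regions of replicate 2 and 0 of replicate 1. Toward the end of the long arm regions were few in both libraries, with 6 in replicate 1 and 11 in replicate 2 beyond 50 Mb. No run of 5 or more same-strand regions with neighbours at most 200 kb apart was found in either library.

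**Figure D1:**
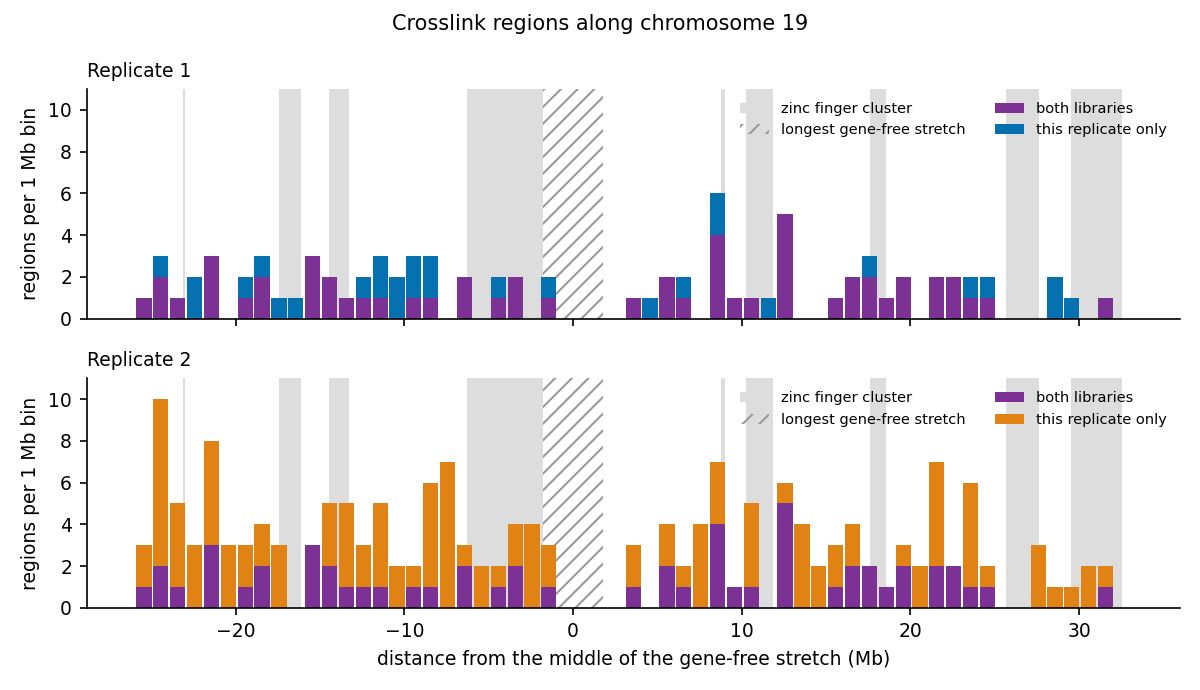
Number of regions per 1 Mb bin (y axis) along chromosome 19 in replicate 1 (top) and replicate 2 (bottom), against the distance in Mb from the middle of the longest gene-free stretch (x axis), with regions in both libraries in purple, regions of that replicate only in blue or orange, zinc finger clusters shaded grey and the gene-free stretch hatched. The gene-free stretch holds 0 regions, although the bar of the bin that spans its left edge reaches into the hatching, and the highest bin of replicate 2 holds 10.

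A further comparison asked whether the zinc finger clusters held regions in keeping with their size and whether recurring regions were placed there more or less often. Zinc finger genes were taken by symbol (ZNF, ZFP, ZSCAN, ZKSCAN, ZIM and ZIK names, and PEG3). Of 266 such protein-coding genes on the chromosome, 251 fell into 9 clusters, runs of at least 5 such genes with neighbours at most 500 kb apart, which together cover 14.9 Mb or 25.4% of its length. The clusters held 12 of 85 regions of replicate 1, or 14.1% (exact 95% interval 7.51 to 23.4), and 26 of 177 of replicate 2, or 14.7% (9.83 to 20.8). Both intervals end below the 25.4% of the bases. They treat regions as independent, although some regions in the clusters form facing pairs, and the difference from the share of bases was not tested. The families share similar sequence and the sources used here do not say how reads with several alignments were handled, so its part in these shares was not tested.

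The shares in the clusters were close between recurring and other regions. They were 14.3% (8 of 56, 6.38 to 26.2) for regions in both libraries, 13.8% (4 of 29, 3.89 to 31.7) for replicate 1 only and 14.9% (18 of 121, 9.06 to 22.5) for replicate 2 only. Neither difference from the regions in both libraries passed the test (two-sided Fisher's exact test, Benjamini-Hochberg adjusted over 2, adjusted p = 1 for each), and the intervals are wide enough to hold sizeable differences.

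The cluster next to the centromere held more regions than any of the other 8 in each library. It runs from ZNF101 to ZNF254 (19668153 to 24129968, 4.46 Mb, 37 zinc finger genes) and held 5 regions of replicate 1 and 14 of replicate 2, 3 of them recurring, at 21428478, 22425512 and 22447379, all between genes. The cluster with the most zinc finger genes, 72 from ZNF628 to ZNF446 near the end of the long arm (55476617 to 58489533, 3.01 Mb), held 1 and 4. The one with 41 genes from ZNF175 to ZNF331 (51571283 to 53580269, 2.01 Mb) held 0 and 1. The cluster of 0.288 Mb from ZNF302 to ZNF792 held 1 and 1. Clusters differ in length, and whether their densities differ was not tested. The cluster from ZNF653 to ZNF791 (11483429 to 12633834) held 2 and 3 regions. Its 2 regions of replicate 1 were the facing pair at 11704923 and 11704948, which recurred.

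Within the clusters, regions lay between genes as well as in the zinc finger genes. In replicate 1, 5 of the 12 lay in a zinc finger gene span and 7 in no gene, and in replicate 2 the numbers were 10 and 12 of 26. Of the 266 zinc finger genes 6 held a region in replicate 1, 9 in replicate 2 and 3 in both. Over all protein-coding genes of the chromosome the numbers were 46, 94 and 31 of 1451. ZNF302 held a recurring site on its own strand at 34684161, with 56.1 and 111, and ZNF552 held one at 57811186 with 10.7 and 7.89. ZNF254 held different sites, 24072192 in replicate 1 (minus, 23.1) and 24077933 in replicate 2 (plus, 15.3). The zinc finger genes hit in replicate 1 only were ZNF43, ZNF585B and ZNF536, the last outside the clusters, and those hit in replicate 2 only were ZNF331, ZNF382, ZNF433, ZNF444, ZNF773 and ZNF787. ZNF787 had the highest score of these, 85.7 at 56098480. By length alone the 266 genes would hold 12.1 regions in replicate 1 and 17.8 in replicate 2, and they held 6 and 10.

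Host genes were compared to ask in what kind of gene the regions lay. Any annotated gene held 58.8% of replicate 1 regions (50 of 85, exact 95% interval 47.6 to 69.4) and 67.2% of replicate 2 regions (119 of 177, 59.8 to 74.1). The other chromosomes had 61.8% and 63.3%, and neither difference passed the test (two-sided Fisher's exact test, adjusted over the 2 libraries, adjusted p = 0.575 for each). Genes cover 63.6% of chromosome 19 and 55.0% of the others. Counting protein-coding spans alone, chromosome 19 had 55.3% (47 of 85) and 61.6% (109 of 177) against 47.5% and 49.1% elsewhere, a difference that passed the test in replicate 2 (adjusted Fisher's exact p = 0.00258) and not in replicate 1 (0.188). Protein-coding spans cover 54.0% of chromosome 19 and 41.4% of the others. These tests treat regions as independent, and 18.1% of the replicate 2 regions of chromosome 19 lay in opposite-strand pairs.

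Long noncoding genes held 3 regions of replicate 1 (3.53%) and 5 of replicate 2 (2.82%), and pseudogenes 0 and 4 (2.26%). Shares of these classes on the other chromosomes are not given here. There the shares in any gene and in protein-coding genes lay further apart, at 61.8% and 47.5% in replicate 1 and 63.3% and 49.1% in replicate 2. On chromosome 19 they were 58.8% and 55.3%, and 67.2% and 61.6%. Whether the share outside protein-coding genes differs was not tested. A single small RNA gene was hit. TRI-TAT1-1, an isoleucine tRNA gene of 93 bases (39412168 to 39412260), held 39412203 on the minus strand with a score of 25.5 in replicate 2, at base 58 counted from its higher edge. None of the other 6 of the 7 tRNA genes of the chromosome was hit, and none of the 7 was hit in replicate 1.

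Per Mb of gene span the libraries stood on different sides of the other chromosomes. Genes of chromosome 19 held 1.34 regions per Mb of span in replicate 1, against 1.55 elsewhere, and 3.20 in replicate 2, against 2.24. Between genes the densities were 1.64 against 1.17 and 2.72 against 1.59. The higher number in replicate 2 was therefore found within and between genes. As for the region totals, no test is given.

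Few genes of the chromosome were hit. At least 1 region lay in 46 of its 1451 protein-coding genes in replicate 1 (3.17%), 94 in replicate 2 (6.48%) and 31 in both (2.14%). Over all protein-coding genes the background was 8.1%, 11.1% and 5.76%. The median protein-coding gene measures 14.3 kb on chromosome 19 and 25.8 kb elsewhere. The genes hit were longer, with medians of 33.9 kb in replicate 1 and 27.8 kb in replicate 2. Counting every annotated gene, 51 of 2699 were hit in replicate 1 and 105 in replicate 2, or 1.89% and 3.89%, against a background of 3.91% and 5.35%, and 34 were hit in both (1.26%), against 2.74%.

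The one-sided exact Poisson test per gene, against the number of regions its length gives and Benjamini-Hochberg adjusted over 59098 genes, called 0 genes of chromosome 19 in replicate 1 and 1 in replicate 2. The background was 0.0254% and 0.0372% of genes called. At an unadjusted p under 0.05 the counts were 24 and 52 of 2699, against a background of 1.05% and 1.53%, and a short gene passes that threshold with a single region. The gene called in replicate 2 was LOC110467531, a pseudogene of 4.213 kb in the zinc finger cluster next to the centromere (23999194 to 24003406), with 3 regions against 0.00952 from length (adjusted p = 0.00169 by the exact Poisson test), and it held 0 in replicate 1. A facing pair, 23999606 (plus, 270) and 23999642 (minus, 287), made up 2 of the 3, and with neighbours within 100 bases counted once no gene of the chromosome was called (lowest adjusted p in the exact Poisson test 0.229).

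Other genes with at least 2 regions in a library were mostly hosts of facing pairs or of scattered sites. C2CD4C, BEST2, a bestrophin anion channel gene, ELSPBP1, PTGIR, the prostacyclin receptor gene, TIMM50, a mitochondrial import gene, and ZNF382 each held 2 regions of replicate 2 that formed a facing pair, and 0 of replicate 1. PEPD, the prolidase gene, held unpaired sites of replicate 2 at 33401211 and 33455911, both opposite to the gene. FBXO17, an F-box protein gene, held 2 regions of replicate 2 and 1 of replicate 1, at the recurring site 38960311 with 19.7 and 98.5. SIN3B, a transcriptional corepressor gene, was the only gene with more than 1 region in replicate 1 and none in replicate 2. Its sites were 16833296 (54.6) and 16854400 (8.24), both opposite to the gene.

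The gene families for which the chromosome is known held few regions, and their lengths give few. None of the 46 microRNA genes of the placental cluster and none of the 4 genes of the MIR371 to MIR373 group, abundant in stem cells, was hit, and their lengths give at most 0.00896 regions. No region lay in any of 31 leukocyte receptor genes (1.04 expected from length in replicate 2), 22 PSG and CEACAM genes (0.861), 15 kallikreins (0.244), 12 cytochromes P450 (0.508), 12 SIGLEC genes including CD33 (0.371), 13 ribosomal protein genes (0.185) or 4 apolipoprotein genes (0.0348). Of 20 olfactory receptor genes, OR7A17 held 1 region in replicate 1. Counts of 0 at such expectations do not show that a family lacks sites.

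From a list of chromatin regulator genes, SIRT6, a deacetylase gene, held a site of replicate 2 with a score of 184 at 4174797. SMARCA4, the ATPase gene of the BAF remodelling complex, held one of replicate 2 with 13.4. PRMT1, an arginine methyltransferase gene, held one of replicate 2 with 7.89. Each of these sites lay opposite to its gene. The other listed genes, among them TRIM28, the corepressor of KRAB zinc finger proteins, held none in either library. SIN3B, with 2 regions in replicate 1, and KDM4B and GATAD2A, with 1 each in replicate 2, are also genes of this kind. They were not on the list, and KDM4B and GATAD2A were named after their values were seen. A hand-made list called neural, which also holds transcription factor genes such as NFIC and TCF3, had 20 genes. Of these 1 was hit in replicate 1 and 4 in replicate 2. Over all protein-coding genes of the chromosome 3.17% and 6.48% were hit. The 20 genes held 1 and 5 regions, against 1.85 and 2.72 expected from length. The listed genes hit were NFIC, hit in both libraries at sites 1 base apart, and TCF3, NRTN, which encodes the growth factor neurturin, and UNC13A, a synaptic vesicle priming gene. Of the 32 protein-coding genes of at least 100 kb, 8 were hit in replicate 1, 13 in replicate 2 and 5 in both, and they held 8 and 14 regions against 7.76 and 11.4 from length.

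The strand comparison asked whether regions lay on the strand of their gene, as contacts with its transcript would. Strands could be taken from the tables of start windows and microRNAs for 1185 of 1451 protein-coding genes, and 41 of 50 in-gene regions of replicate 1 and 93 of 119 of replicate 2 lay in genes of a single known strand. The strand of the gene held 17 of 41 regions in replicate 1, or 41.5% (exact 95% interval 26.3 to 57.9), and 39 of 93 in replicate 2, or 41.9% (31.8 to 52.6). Both intervals include an equal split. On the other chromosomes the shares were 46.3% and 46.01%, and the difference did not pass the test in either library (two-sided Fisher's exact test, adjusted over the 2 libraries, adjusted p = 0.635 for each).

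Of the recurring regions in genes of known strand, 11 lay on the strand of the gene and 14 on the opposite strand (44.0%, 24.4 to 65.1), an interval that also includes an equal split. For replicate 1 only the numbers were 6 and 10, and for replicate 2 only 28 and 40. A facing pair in a gene places a site on each strand. Without regions in such pairs, replicate 2 only had 22 and 34, and the numbers of the other groups did not change. In replicate 2 as a whole the strand of the gene then held 33 of 81 regions (40.7%, 29.9 to 52.2). Both kinds occurred among the highest scores, with PPP1R13L and RYR1 on the strand of the gene and CAPNS1, LIPE-AS1, IER2 and ABCA7 opposite to it. On the chromosome as a whole, replicate 1 had 40 plus-strand and 45 minus-strand regions and replicate 2 had 86 and 91.

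Facing pairs of sites on opposite strands were found on both arms, the last along the chromosome being that of ELSPBP1 at 47995504. Pairs within 100 bases in the same library numbered 3 in replicate 1 and 16 in replicate 2, and held 7.06% and 18.1% of its regions, against 5.72% and 14.4% on the other chromosomes and 5.74% and 14.5% over chromosomes 1 to 22 and X. In all 16 of replicate 2, which include the 3 of replicate 1 at the same bases, the plus-strand site had the lower coordinate. Although distances up to 100 bases were allowed, those observed were 25 to 39 bases in replicate 1 (median 33) and 20 to 43 in replicate 2 (median 28). The 3 pairs of replicate 1, at 11704923, 31147425 and 34472999 (plus-strand sites), all lay between genes and recurred in replicate 2 at both sites. The other 13 pairs of replicate 2 had neither site in replicate 1. Of the 16 pairs, 8 lay in a gene.

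Within a pair the scores were close in some cases and apart in others. In replicate 2 the sites of the pair at 31147425 scored 253 and 254, those of the LOC110467531 pair 270 and 287 and those at 8411679 scored 58.0 and 60.1. In the TIMM50 pair they were 1.41 and 26.2. The pair with the widest spacing, 43 bases, lay in PTGIR, and the one with the narrowest, 20 bases, lay between genes at 8411679. Paired regions are not independent of each other.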

How the data were processed

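Crosslink regions of 2 irCLIP libraries of 1 group were analysed. Each deposited file lists the regions of 1 library, so regions were called per library. The deposited score is the sum of the scores of a region's sites, which held to within 0.01 for all 10199 regions when checked. Per the submitters' processing notes, the build was hg38 and the tools included UMI-tools, STAR 2.5.2, deepTools, Bowtie2 2.3.5 and SAMtools, in no stated order. The sources used here do not give the calling program or its threshold, and read depth is unknown, so intervals cover the counting of regions only.

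Coordinates were made 1-based. Genes came from RefSeq spans on GRCh38.p14, whose chromosome coordinates are those of hg38, without exons, and each region was placed by its midpoint. Gene strands came from RefSeq start windows and microRNAs, where every entry of a gene had the same strand. Recurring regions share 1 base or more with a same-strand region of the second library. Expected regions per gene are the in-gene regions of a library times gene length over the merged length of all genes. Intervals are exact binomial (Clopper-Pearson, 95%). Chromosome 19, the lists and the rules were chosen with earlier results of these data known, and the bins by gene density and the start windows after the data were seen. Besides the per-gene Poisson test, 7 main Fisher's exact tests and 26 under alternative settings were made, adjusted only within each pair of libraries or groups. Only the comparison of protein-coding hosts in replicate 2, an alternative, passed. Statistics were computed in Python 3.11.15 with scipy 1.17.1. The per-gene test was tried on simulated independent counts, with an excess planted only in genes of at least 100 kb. Those simulations do not cover an excess in short genes or facing pairs, as in LOC110467531. Genes were named where they held 1 of the 15 recurring regions with the highest summed score, at least 2 regions in a library, a region in both libraries (zinc finger genes), a Poisson call, or membership of a list with a region. Other genes were named after their values were seen. Counts over the list of chromatin regulator genes are not reported here.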

Additional observations from a re-analysis of the deposited data

How the results depend on the processing

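The planned comparison of exons with introns and the sequence context of all sites need exon annotation and a genome sequence, which were not used here, and were not run. No paired analysis was possible because the 2 libraries form 1 group. Results are given for each library on its own, so leaving out a library gives the values of the other. The share of all regions lying on chromosome 19, 2.03% and 2.97% of chromosomes 1 to 22 and X, stayed within its interval at or above the median score and with neighbours within 100 bases counted once. The recurrence in replicate 1 against other chromosomes turned at or above the median score (80.0%), and not with sites matched within 10 or 100 bases or on either strand. The share in zinc finger clusters of regions in both libraries minus that of replicate 1 only, 0.49 percentage points, became -10.2 in zinc finger gene spans alone, -11.1 at or above the median score and -1.02 with sharing within 100 bases. Minus that of replicate 2 only it was -0.59, and became 5.19 with gaps of at most 250 kb and 0.63 with gaps of at most 1 Mb. None of these passed the test. The share of regions in genes changed its order against other chromosomes with protein-coding genes in replicate 1 (55.3%), passed the test with them in replicate 2 (61.6%), and turned for regions in both libraries in replicate 2 (57.1%). The share on the strand of the gene turned against other chromosomes for regions in both libraries (44.0% in each) and at or above the median score in replicate 2 (45.7%), without passing the test. The 1 gene called by the Poisson test in replicate 2 was lost, leaving 0, at or above the median score and with neighbours counted once. Over all chromosomes the calls fell from 15 and 22 to 0 and 5 with neighbours counted once and to 10 and 11 at or above the median score, where fewer regions were tested.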

Other observations

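Identical scores recurred among the regions of chromosome 19. In replicate 2, 97 of 177 regions (54.8%) had a score that another region of the chromosome also had, against 19 of 85 (22.4%) in replicate 1. The 2 shares are not directly comparable, because replicate 2 has more regions that could share a score. The score 12.5 was held by 16 regions of replicate 2, 20.8 by 10 and 3.26 by 9. On the other chromosomes 12.5 was also the lower quartile of replicate 2 scores, and the share of repeated scores there was not counted. Among the 121 regions found in replicate 2 only, 86 had a score that another region of the chromosome shared, and among its 56 recurring regions 11 had one. RAX2, a retinal homeobox gene, COPE, a coatomer subunit gene, and MAN2B1, a lysosomal mannosidase gene, named after their values were seen, held regions of replicate 2 only with scores of 203, 138 and 105, which no other region of the chromosome shared.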
